A study of Mus musculus with 6 samples.

Results

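The first 2 h of depolarization were examined in cultured mouse cortical neurons by comparing the 2 RNA-seq libraries labelled 2 h of KCl with the 2 labelled 0 h, which are 4 of the 6 libraries of the series. The libraries were assigned to groups by their titles, and every gene in the tables entered the comparison. Neurons came from wild-type C57BL/6 embryos, male and female pooled, taken at E16.5, and were cultured for 7 days. On day 6 all cultures, the 0 h cultures included, received 1 μM tetrodotoxin, which blocks voltage-gated sodium channels, and 100 μM DL-AP5, which blocks NMDA receptors, and were left overnight. The 0 h neurons were harvested in this silenced state and the 2 h neurons after 2 h in 55 mM KCl, so the comparison starts from neurons held quiet and not from spontaneously active ones. The study describes the 2 libraries of each group as biological replicates, and the third group, at 6 h, shares an estimate of the spread in the fit and is otherwise given as single values beside some genes.

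High extracellular potassium depolarizes the neuronal membrane and opens voltage-gated calcium channels. Calcium entry activates calcium/calmodulin-dependent kinases, the MAP kinase cascade and the phosphatase calcineurin, and these act on transcription factors already present in the nucleus, such as CREB, SRF and MEF2. Immediate-early genes respond first and without new protein synthesis. Secreted factors, signalling inhibitors and synaptic proteins follow, and the genes that are switched off in the same window are less well known.

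Each library held 25959298 to 28573067 expected counts, and 18767 to 19212 of 43432 listed genes had a count. Calls were made in a DESeq2 fit over all 6 libraries and required an adjusted p of 0.05 or less together with a log2 fold change beyond 1 in either direction. Values below are normalized counts, in the order replicate 1 and replicate 2, and log2 fold changes are 2 h minus 0 h with their standard error. Of 16840 genes tested, 609 (3.62%) were called higher and 1000 (5.94%) lower at 2 h, together 9.55%. With library totals in place of size factors the counts were 499 and 1332, so that 27.3% instead of 37.8% of the calls were increases, and the median log2 fold change of all genes tested went from 0.02 to -0.15. No called gene had 0 h and 2 h libraries that overlapped.

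The immediate-early and Zfp genes, which are set aside below, moved in opposite directions. Of 20 listed immediate-early genes, 17 were called higher and 0 lower, with a median log2 fold change of 3.23. Of 374 protein-coding Zfp genes tested, 5 were called higher and 172 lower, with a median of -0.93, and the 5 were 1 without 2 h replicate 1. Outside both lists 587 genes were called higher and 828 lower among 16446 tested.

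The neuronal identity of the cultures was read from marker genes in TPM, a unit corrected for transcript length. The 8 pan-neuronal markers summed to 7359 to 7517 TPM at 0 h and 7116 to 7217 TPM at 2 h. No marker of the 8 was called, but at an adjusted p of at most 0.05 in DESeq2 5 were higher and 1 lower, the latter Tubb3, a neuronal tubulin, at 1639 and 1679 TPM against 834 and 989 TPM (log2 fold change -0.69). Astrocyte markers summed to 803 to 926 TPM over the 4 libraries, and the progenitor list to 3118 to 4011 TPM. Fabp7, which is also expressed by astrocytes, made up 2988 to 3869 TPM of the progenitor sum, whereas Mki67 and Top2a of dividing cells lay at 14.5 to 18.4 and 38.6 to 54.4 TPM. Oligodendrocyte-lineage markers reached 98.9 to 152 TPM. Microglial markers reached 3.64 to 9.42 TPM, with Cx3cr1, P2ry12, Csf1r and Tmem119 under 1 TPM in all 4 libraries, and vascular markers 16.0 to 20.8 TPM, with Cldn5, Kdr, Col1a1, Col1a2 and Lum under 1 TPM. Every value is a mean over the cells of a culture.

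Outside the set-aside lists, the steepest changes are given for called genes with a mean count of 100 or more. Among the increases, Pcsk1, the prohormone convertase that cleaves peptide precursors in secretory granules, had counts of 146 and 163 at 0 h and 5076 and 4110.5 at 2 h. Both depolarized libraries stood far above both silenced ones, with a log2 fold change of 4.89 ± 0.16 (adjusted p = 2.54e-190). Bdnf, the neurotrophin that signals through TrkB, had 99.4 and 79.2 at 0 h and 1707 and 1209 at 2 h, a log2 fold change of 4.03 ± 0.22 (adjusted p = 3.41e-71). Sertad1, a transcriptional coregulator, went from 18.6 and 10.1 to 238 and 235, a change of 4.05 ± 0.34 (adjusted p = 5.59e-31). The groups were well apart in each of these genes, and the 2 h replicates differed most in Bdnf.

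Several of the other increases were in genes of nuclear proteins. Crem encodes CREB-family factors that include the inducible repressor ICER, and its counts were 217 and 201 at 0 h against 3053 and 2096 at 2 h (3.62 ± 0.20, adjusted p = 1.78e-67). Nfil3, a repressive bZIP factor that competes with clock factors for D-boxes, had 719 and 787 against 7672 and 8744 (3.45 ± 0.14, adjusted p = 6.23e-127). Cwc25, a spliceosome component, had 554 and 610.1 against 4786 and 5317 (3.12 ± 0.13, adjusted p = 2.00e-129). At 6 h its counts were 1009 and 971, whereas those of Crem were 3799.7 and 3586. Csrnp1 and Nfatc2, a nuclear protein and a calcineurin-regulated factor, rose by 3.09 and 2.94 on the log2 scale from counts of at most 31.1 at 0 h.

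Among the other steep increases, Ppp1r15a, which recruits a phosphatase to eIF2α and so relieves translational arrest, had 363 and 391 at 0 h and 3346 and 4273 at 2 h (3.34 ± 0.17, adjusted p = 6.08e-83). Ccn1, a matricellular protein, rose by 3.44, Vgf, a granule peptide precursor, by 3.24, Ism1, a secreted protein, by 3.19, Fbxo33, an F-box protein, by 2.96 and Tnfaip6, a hyaluronan-binding protein, by 2.89. Zdbf2, an imprinted gene, had 1815 and 1557 at 0 h and 14813 and 7312 at 2 h. Its 2 h replicates lay far apart and both stood above the silenced libraries (2.71 ± 0.28, adjusted p = 7.72e-20).

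The steepest decrease among called genes at a mean count of 100 or more was in Txnip, an α-arrestin that binds thioredoxin and limits glucose uptake. Its counts were 2059 and 2268 at 0 h and 58.9 and 80.6 at 2 h, a log2 fold change of -4.96 ± 0.22 (adjusted p = 4.53e-105), and some of its reads were shared with other genes. Map10, a microtubule-associated protein, had 303 and 230.1 against 19.97 and 21.7 (-3.68 ± 0.35, adjusted p = 2.77e-24). Jrk, a nuclear protein with a DNA-binding domain of transposase origin, had 312 and 339.6 against 23.0 and 29.98 (-3.62 ± 0.29, adjusted p = 1.22e-33), and its relative Jrkl fell by 2.72 on the log2 scale. Senp8, the protease that matures and removes NEDD8, had 294 and 288 against 27.0 and 28.9 (-3.38 ± 0.31, adjusted p = 1.32e-25). In each of these genes both 2 h libraries lay far below both 0 h libraries.

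The remaining steep decreases included 4 zinc-finger genes with Zbtb, Zkscan or Zscan symbols beside enzymes and a carrier. Tgds, a dehydratase of nucleotide sugars, fell by 2.94 on the log2 scale, Chst12, a chondroitin sulfotransferase, by 2.73 and Slc25a32, a mitochondrial folate and FAD carrier, by 2.71. Wdr5b, a WD-repeat protein whose gene overlaps Fam162a, fell by 2.79, Zswim3 by 2.77 and D17H6S53E by 2.66. The zinc-finger genes Zbtb3, Zkscan4, Zscan22 and Zkscan16 fell by 3.34, 3.02, 2.66 and 2.62. At 6 h, Zscan22 stood at 386 and 351 beside 363 and 331 at 0 h, whereas Senp8 stood at 26.8 and 24.7.

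**Figure D1:**
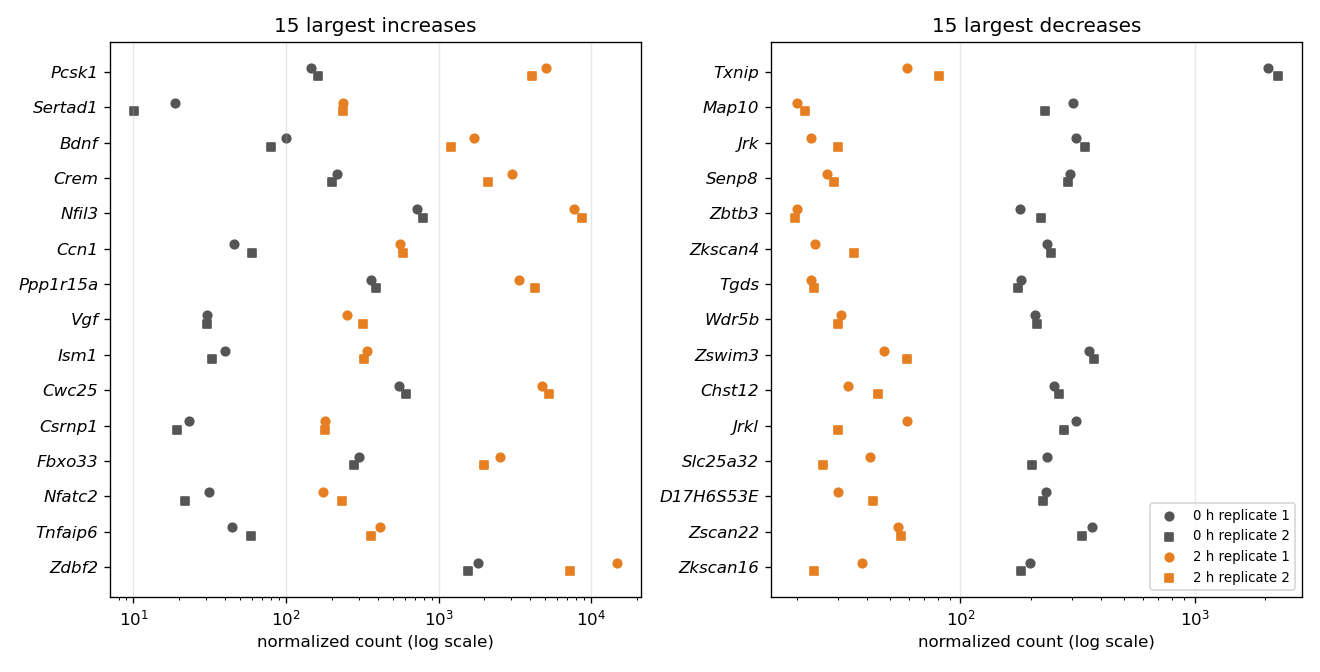
Normalized counts on a log axis of the 15 named genes with the largest increases (left) and the 15 with the largest decreases (right), outside the immediate-early and Zfp lists. Each point is 1 library, grey for 0 h and orange for 2 h. The 30 genes were chosen among those whose 2 groups do not overlap. The 2 h replicates are most apart in Zdbf2 at 14813 and 7312.

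Inhibitors of signalling pathways were among the genes that rose. The MAP kinase feedback list, phosphatases and Sprouty-type inhibitors that limit ERK, p38 or JNK activity, had 7 of 19 members (36.8%) called higher, beside 3.62% of all genes tested, and 0 lower, with a median log2 fold change of 0.87. Dusp14 went from 187 and 149 to 737 and 818 (2.21 ± 0.18, adjusted p = 8.26e-33) and Dusp6, the ERK phosphatase, from 247 and 251 to 953 and 954 (1.94 ± 0.15, adjusted p = 3.01e-38). Dusp16, Dusp4, Spry2, Errfi1 and Spry4 made up the 7, with changes of 1.29 to 1.89. All 7 had 0 h and 2 h libraries that did not overlap, as had every called gene.

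RGS proteins speed up GTP hydrolysis by G-protein α subunits. Of 20 genes with an Rgs symbol, the RGS-binding protein gene Rgs7bp among them, 4 (20%) were called higher and 0 lower. Of all genes 3.62% were called higher. The median of the list was -0.15, so the increase was in single members. Rgs2 had 834 and 877 at 0 h and 3333 and 2909 at 2 h (1.87 ± 0.13, adjusted p = 7.53e-45). Rgs7bp, Rgs16 and Rgs4 changed by 1.28, 1.12 and 1.01, close to the threshold. With library totals Rgs16 and Rgs4 were no longer called. Without 2 h replicate 1 neither Rgs4 nor Rgs7bp was called, and Rgs7bp was also lost without either 0 h replicate, at changes of 0.62 to 1.71 when 1 library was left out.

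Kinases and GTPases that are controlled largely through their own expression were also called in part. Among 22 inducible kinases and pseudokinases 5 (22.7%) were called higher and 2 (9.09%) lower, beside 3.62% and 5.94% of all genes. The increases were 3 with library totals, and without either 0 h replicate or 2 h replicate 2 the decreases were 1. Sik1, a salt-inducible kinase that phosphorylates the CREB coactivators CRTC, went from 432 and 435 to 2368 and 2736 (2.56 ± 0.13, adjusted p = 4.21e-78), and Trib1, a pseudokinase that targets proteins for degradation, from 170.4 and 189 to 798 and 759 (2.12 ± 0.17, adjusted p = 4.42e-35). Sik3, Plk2 and Sik2 changed by 1.34, 1.15 and 1.07, and Dclk3 fell from 706 and 691 to 154 and 199.5 (-1.98 ± 0.20, adjusted p = 3.51e-22). Of 21 RGK and other Ras-like GTPases 4 were called higher and 1 lower, with Gem, an inhibitor of voltage-gated calcium channels, at 28.4 and 28.7 against 162 and 148 (2.44 ± 0.29, adjusted p = 2.17e-15).

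Receptors with the symbol Gpr did not move in 1 direction. Of 54 tested 5 (9.26%) were called higher and 5 (9.26%) lower, beside 3.62% and 5.94% of all genes. The decreases were 3 without 0 h replicate 1. Gpr19 went from 314 and 292 to 1687 and 1967 (2.59 ± 0.16, adjusted p = 6.09e-60), and Gpr35 from 7.10 and 6.74 to 136 and 139.6. Gpr17, a receptor of immature oligodendrocytes, had 696 and 1431 at 0 h and 236 and 336 at 2 h, and its silenced replicates differed by more than its depolarized ones. In bulk RNA, fewer cells of a type and less RNA per cell cannot be told apart.

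Secreted peptides were called on the rising side alone. Of 27 neuropeptide and granule genes 7 (25.9%, beside 3.62% of all genes) were called higher and 0 lower, and the median was 0.35. The count was 4 without 0 h replicate 1 and 3 in a test against a fold change of 2, and the median was 0.18 with library totals. Vgf had 30.2 and 30.3 at 0 h and 252 and 320.5 at 2 h. Scg2, secretogranin II, had 2302 and 2264 against 9185 and 9896 (2.06 ± 0.10, adjusted p = 2.74e-96), and at 6 h 17231 and 17269. Adcyap1, which encodes the peptide PACAP, had 72.8 and 71.6 against 312 and 322 (2.13 ± 0.21, adjusted p = 3.29e-23), and Tac1, the precursor of substance P, 69.2 and 104 against 275 and 247. Nppc, Crh and Edn1 completed the 7 at mean counts under 50. In these genes and in Pcsk1, the enzyme that processes such precursors, both silenced libraries were below both depolarized ones. The same held for every gene called higher.

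Sterol synthesis genes were called on the rising side alone. Of 26 genes 10 (38.5%) were called higher and 0 lower, against 3.62% and 5.94% of all genes tested. At an adjusted p of at most 0.05 in DESeq2, whatever the size of the change, 19 were higher and 2 lower. Stard4, a sterol carrier, had 2235 and 2182 against 8823 and 6405 (1.79 ± 0.17, adjusted p = 4.63e-24), and Msmo1, a methylsterol oxidase, 4557 and 4404 against 16769 and 13194 (1.74 ± 0.14, adjusted p = 4.63e-31). Insig1, which holds back sterol-regulated transcription factors in the endoplasmic reticulum, had 2889 and 2822 against 9366 and 8223 (1.62 ± 0.12, adjusted p = 5.33e-42). Cyp51, Sc5d, Idi1 and Hsd17b7, enzymes of the pathway, changed by 1.13 to 1.42, and the 2 h replicates lay furthest apart in Idi1 (5854 and 5538 against 17215 and 8356). As in every called gene, the groups did not overlap in any of the 10. The median of the list was 0.74, and 0.58 with library totals.

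Metabolic and stress genes were called in small numbers. Slc2a3, the neuronal glucose transporter GLUT3, went from 3292 and 3436 to 10042 and 10341 (1.60 ± 0.09, adjusted p = 4.84e-64) and was the only member of 29 glycolysis genes to be called. Opposite to it, the α-arrestins Arrdc4 and Arrdc3 fell with Txnip, from 2154 and 2200.3 to 516 and 580.0 (-1.99 ± 0.13, adjusted p = 5.34e-50) and from 4481 and 4440.3 to 1511 and 1006 (-1.83 ± 0.20, adjusted p = 8.59e-19). These were 3 of the 8 members tested (37.5%) in the list of arrestin-domain and glucose-sensing genes, beside 5.94% of all genes, and the count was 3 whichever library was left out. Of 38 genes of the ER stress and amino acid response 4 (10.5%) were called higher and 2 (5.26%) lower, beside 3.62% and 5.94% of all genes. Chac1, a glutathione-degrading enzyme of this list, had 118 and 104 against 19.97 and 28.9 (-2.18 ± 0.33, adjusted p = 1.40e-09). Atf4, the factor that drives amino acid synthesis genes, is counted among the bZIP factors and not in this list. It had 3178 and 3325 against 12185 and 14425 (2.03 ± 0.13, adjusted p = 5.78e-53).

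Transcription factor families differed in direction. Among 51 Rel, NFAT, IRF, STAT and related signal-dependent factors 10 (19.6%) were called higher and 1 (1.96%) lower, beside 3.62% and 5.94% of all genes. Nfatc2 had 31.1 and 21.9 at 0 h and 174 and 233 at 2 h (2.94 ± 0.35, adjusted p = 1.71e-15), Elf4, an ETS factor, 15.1 and 24.4 against 163.8 and 187 (3.15 ± 0.37, adjusted p = 1.38e-15), and Nfkbiz, an atypical IκB protein, 52.4 and 70.8 against 213 and 191 (1.71 ± 0.26, adjusted p = 1.55e-09). Srf, Irf2bp2, Nfat5, Rel, Nfkbid, Irf4 and Irf7 completed the 10, the last 4 at mean counts under 50. Stat2 was the 1 that fell.

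In the Krüppel-like and Sp family 4 of 21 were called higher and 3 lower. Klf7, which promotes axon growth, had 5709 and 5085 at 0 h and 2015 and 1809 at 2 h (-1.497 ± 0.12, adjusted p = 4.76e-31), with shared reads and an overlap with another transcript, and Klf15 had 146 and 186 against 22.0 and 37.2 (-2.49 ± 0.37, adjusted p = 2.79e-10). Klf9 and Sp9 changed by 1.38 and 1.43. Of 72 homeobox factors tested 5 (6.94%) were called higher and 1 (1.39%) lower, beside the same shares of all genes. The increases were 3 with library totals or without 0 h replicate 1. Among the 5 were Dlx5 (53.3 and 68.3 against 159.8 and 214) and Dlx2 (123.4 and 132 against 274 and 282), regulators of interneuron identity. With library totals Dlx2 was no longer called. Both are among the 10 inhibitory-neuron markers, all of which had a log2 fold change above 0, 7 of them at an adjusted p of at most 0.05. Their median was 0.60, beside 0.14 for the excitatory markers, with Gad1 at 0.62 and Sst at 0.84, and the 10 markers summed to 644 to 703 TPM at 0 h and 823 to 957 TPM at 2 h. The part of these cells in the Dlx result was not tested.

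The BTB and SCAN zinc-finger factors, zinc-finger genes with symbols other than Zfp, held the largest group of decreases among the factor families. Of 68 tested 23 (33.8%) were called lower against 5.94% of all genes, 1 was called higher, and the list had a median log2 fold change of -0.62. Zbtb3 had 180.2 and 221 at 0 h and 19.97 and 19.6 at 2 h (-3.34 ± 0.37, adjusted p = 4.73e-18). Zkscan4 had 235 and 244 against 24.0 and 35.1 (-3.02 ± 0.32, adjusted p = 9.78e-19), and Zscan22 had 363 and 331 against 53.9 and 55.8 (-2.66 ± 0.23, adjusted p = 3.67e-29). Zbtb11 was the exception at a change of 1.42. This list and the Zfp list were known to fall in earlier results of these data, so the count is a description and no independent evidence.

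Sox10, a master regulator of the oligodendrocyte lineage, was the 1 glial marker called, with 202 and 283 at 0 h and 31.0 and 48.6 at 2 h (-2.61 ± 0.33, adjusted p = 4.87e-14). Beside it Sox8 fell by 1.61 and Sox13 fell by 2.89 on the log2 scale. The other 7 markers of the lineage were not called. Among them Pdgfra, Cspg4, Olig1 and Mbp had changes of -0.59 to -0.15, Olig2 of 0.22 and Mog of 0.03, and the 8 markers summed to 129 and 152 TPM at 0 h and to 98.9 and 116 TPM at 2 h. At 6 h Sox10 stood at 190.5 and 184. The part of cell numbers in the change of Sox10 was not tested.

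**Figure D2:**
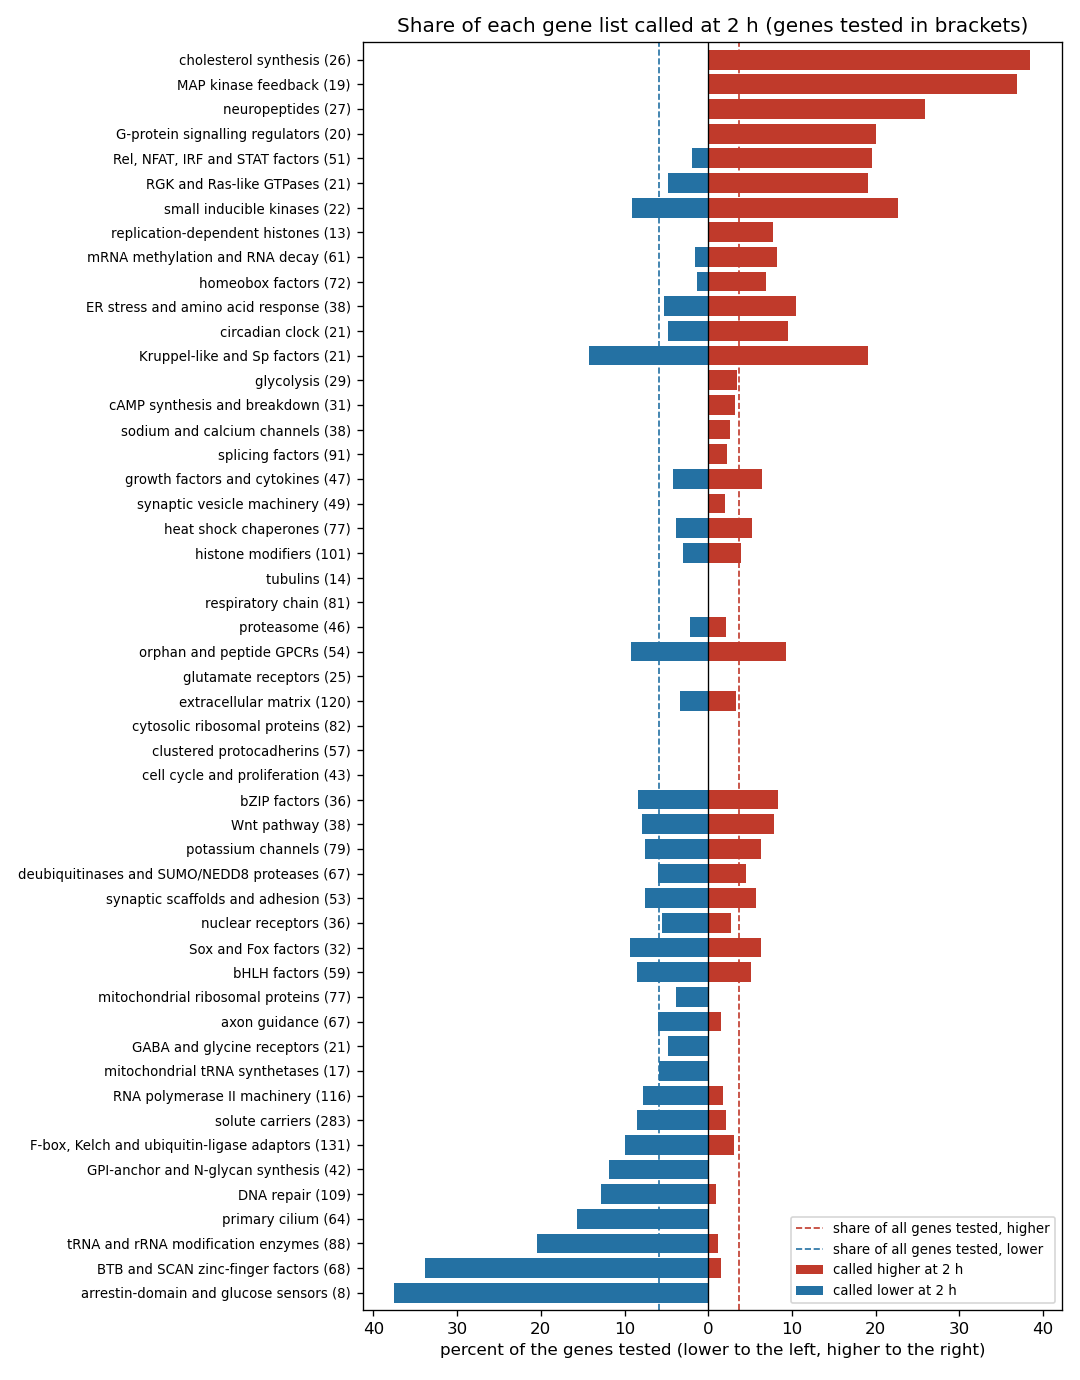
Percent of tested genes called higher (red, to the right) and lower (blue, to the left) at 2 h in each of 51 gene lists, with the number tested in brackets. Dashed lines give the share of all genes tested, 3.62% higher and 5.94% lower; sterol synthesis reaches 38.5% higher, and the BTB and SCAN factors 33.8% lower.

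Enzymes that modify tRNA and rRNA were called lower more often than higher. Of 88 tRNA and rRNA modification enzymes tested 18 (20.5%) were called lower, beside 5.94% of all genes, and 1 higher, with a median of -0.31. In a test against a fold change of 2 the 18 were 3. Trmt1l, a relative of the guanosine methyltransferase Trmt1, had 699.5 and 724 at 0 h and 145 and 142 at 2 h (-2.31 ± 0.17, adjusted p = 1.16e-39). Trmt12, an enzyme of wybutosine synthesis, had 151 and 142 against 36.9 and 31.0 (-2.10 ± 0.36, adjusted p = 8.43e-08), and Pus7l, a pseudouridine synthase, 132 and 158 against 31.0 and 25.8 (-2.36 ± 0.50, adjusted p = 2.18e-05). The pseudouridine synthase genes Pus7, Pus3, Pus10, Rpusd4 and Rpusd2 were also among the 18, and the cytosine methyltransferase Trdmt1 fell by 1.90. The 1 called higher, under the symbol Trmt61b, is annotated as an antisense transcript and not as a protein-coding gene. It overlaps Spdya, has shared reads and had 106 and 121 against 531 and 464.

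Of 61 genes of mRNA methylation and decay 5 (8.20%) were called higher and 1 (1.64%) lower, beside 3.62% and 5.94% of all genes tested. With library totals the counts were 3 and 2. Rbm15, a subunit of the m6A writer complex, had 182 and 183 against 802 and 955 (2.27 ± 0.18, adjusted p = 3.16e-35), Ythdc1, the nuclear m6A reader, 2487 and 2284 against 6039.6 and 5224 (1.24 ± 0.14, adjusted p = 2.94e-16), and Tob2, an adaptor of the CCR4-NOT deadenylase, 267 and 329 against 1181 and 1215 (2.01 ± 0.16, adjusted p = 2.56e-35). The writer subunits Mettl3 and Mettl14 were not called, with log2 fold changes of -0.52 and -0.75. Of 91 splicing factors 2 were called, Mbnl2 and Ptbp1, both higher, and 1 of them without 2 h replicate 1.

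DNA repair genes had 14 of 109 called lower (12.8%, beside 5.94% of all genes) and 1 higher, with a median of -0.28. Slx4, a scaffold for structure-specific nucleases, had 1781 and 1953 at 0 h and 640.1 and 778 at 2 h (-1.40 ± 0.15, adjusted p = 2.68e-19), and Mlh3, a mismatch repair subunit, 945 and 962 against 405 and 299 (-1.44 ± 0.20, adjusted p = 1.37e-11). Xpc, Mbd4, Bard1, Xrcc6, Pms1, Polk, Rad50, Dclre1b, Recql5, Rad9a, Fancf and Palb2 completed the 14. Most of these changes were near the threshold, and the count was 9 without 0 h replicate 1 and 0 in a test against a fold change of 2.

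Primary cilium genes had 10 of 64 called lower (15.6%, beside 5.94% of all genes) and 0 higher, and the 10 were 3 in a test against a fold change of 2. Tmem216, a transition-zone protein, had 197 and 209.8 against 32.0 and 41.4 (-2.47 ± 0.31, adjusted p = 9.64e-14), Bbs10, a chaperonin-like protein of BBSome assembly, 129 and 139 against 33.0 and 28.9 (-2.11 ± 0.35, adjusted p = 2.47e-08), and Ttc26, of intraflagellar transport, 331 and 354 against 93.9 and 103 (-1.80 ± 0.20, adjusted p = 4.25e-18). The silenced and depolarized libraries did not overlap in any of the 10, as in every called gene. At 6 h Ttc26 stood at 442 and 458. The median over the 64 genes was -0.20.

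Other lists are given beside the 5.94% of all genes called lower. Of 42 genes of GPI-anchor and N-glycan synthesis 5 (11.9%) were called lower and 0 higher, with Pigc, a subunit of the enzyme that starts GPI synthesis, at 509 and 485 against 142 and 127 (-1.89 ± 0.19, adjusted p = 8.79e-21). Of 116 subunits of RNA polymerases and their cofactors 9 (7.76%) were called lower and 2 higher, or 14 and 0 with library totals, led by Med18 of Mediator (-2.03) and Gtf2h3 of TFIIH (-1.74). Among 283 solute carriers 24 (8.48%) were called lower and 6 higher (3 when genes with shared reads were left out). The monocarboxylate-family carriers Slc16a13 and Slc16a6 fell by 2.44 and 2.16 on the log2 scale, the second with shared reads, whereas Slc38a6, of an amino acid carrier family, rose by 2.17 (4606 and 4078 against 21089 and 18036, with shared reads). Ubiquitin-ligase adaptors had 13 of 131 (9.92%) called lower and 4 higher, a count of decreases that was 8 without 0 h replicate 1.

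Several large machineries showed no called gene. None of 82 cytosolic ribosomal protein genes, 81 respiratory chain genes, 25 glutamate receptor genes, 43 cell cycle genes, 14 tubulins or 57 clustered protocadherins was called in either direction by DESeq2, and edgeR called 0 of them as well. At an unadjusted p under 0.05, 51 ribosomal genes were higher and 1 lower, 22 respiratory genes higher and 0 lower, 2 glutamate receptor genes higher and 3 lower, 7 cell cycle genes higher and 4 lower, 1 tubulin higher and 6 lower, and 6 protocadherins higher and 0 lower. The most abundant glutamate receptor genes were Grin2b, an NMDA receptor subunit, at a log2 fold change of -0.49 ± 0.16, and Gria2, an AMPA receptor subunit, at -0.04 ± 0.21. In the ribosomal list 33 genes were nevertheless higher and 1 lower at an adjusted p of at most 0.05, at a median log2 fold change of 0.29 that was 0.13 with library totals, and 56 of the 82 had shared reads. The respiratory list had 11 higher and 0 lower, at a median of 0.22 that was 0.06 with library totals. Mitochondrial ribosomal proteins had 3 of 77 (3.90%) called lower, below the 5.94% of all genes. These were Mrps2 (787 and 789.6 against 219 and 186), Mrpl44 and Mrpl1.

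Ion channel and synaptic genes are given beside the shares of all genes tested (3.62% higher and 5.94% lower). Of 79 potassium channel genes 5 (6.33%) were called higher and 6 (7.59%) lower, with 3 higher without 2 h replicate 2 and 11 lower with library totals. Kcnf1, a silent subunit that modifies Kv2 channels, had 1196 and 1219 against 3231 and 3422 (1.46 ± 0.11, adjusted p = 6.02e-39), while the silent subunits Kcns2 (279 and 258 against 62.9 and 53.8) and Kcnv1 (905 and 745 against 382 and 268) fell by 2.2 and 1.34. Kcns2 stood at 684 and 739 at 6 h. Of 38 sodium and calcium channel genes only Scn4a (2.63%) was called, higher and at a mean count under 50, and 0 were called lower.

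At the synapse 3 of 53 scaffold and adhesion genes (5.66%) were called higher and 4 (7.55%) lower. Homer1, a postsynaptic scaffold whose short form is induced by activity, had 2147 and 1924 at 0 h and 15721 and 8178 at 2 h (2.55 ± 0.27, adjusted p = 2.30e-19). Lrrtm1, a leucine-rich partner of neurexins, went from 649 and 723 to 2137 and 2460.5 (1.74 ± 0.14, adjusted p = 5.51e-34). Related leucine-rich adhesion proteins fell, Lrfn2 from 808 and 819 to 209 and 256 (-1.81 ± 0.18, adjusted p = 9.39e-23) and Slitrk1 from 1589.9 and 1673 to 521 and 573 (-1.58 ± 0.14, adjusted p = 5.06e-27), with Slitrk3 and Slitrk5 at -1.22 and -1.15. The vesicle protein Syt4, with shared reads, was the 1 of 49 vesicle genes (2.04%) that was called, at 14573 and 14229 against 41301 and 31011.

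Matrix and guidance genes were few. Col10a1, a collagen whose gene overlaps Nt5dc1, had 3.55 and 0 at 0 h and 172 and 163 at 2 h. The proteases Adamts1 and Adamts15 moved in opposite directions, by 1.32 ± 0.13 (adjusted p = 6.36e-22) and -2.01 ± 0.18 (adjusted p = 4.59e-26). Nrp1, a semaphorin and VEGF receptor, had 1706 and 1756 against 713 and 654 (-1.34 ± 0.12, adjusted p = 3.31e-27) and 1709 and 1753 at 6 h. Of 67 guidance genes 4 (5.97%) were called lower, near the 5.94% of all genes, and 1 higher, which was not called when any 1 library was left out.

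When genes were grouped instead by the letters of their symbols, 100 families with at least 15 tested members remained. The highest shares of increases, beside 3.62% of all genes, were in Dusp (5 of 22), Rgs (4 of 20) and Nr (3 of 19). All 3 Nr genes were Nr4a genes of the immediate-early list. Cfap (4 of 27) and Myo (3 of 21) came next. Cfap58 and Cfap53, cilia- and flagella-associated proteins, had at most 7.10 at 0 h and 23.0 to 41.4 at 2 h, and of the called Myo genes Myo15 and Myo5c lay at 0 to 1.78 at 0 h and Myo1e at 122.5 and 99.4 against 319 and 316. Myo5c was not called in 10 of the alternatives, Myo15 in 6 and Cfap53 in 4, so these shares rest in part on calls near 0 counts. The highest shares of decreases, beside 5.94% of all genes, were in Zbtb (12 of 42), Prr (4 of 17) and Trmt (4 of 17). Sox (3 of 15) and Kctd (4 of 21) came next. Prr15 was not called in 8 of the alternatives and Kctd11 in 4.

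Gene structure and level were related to the direction of change. Over 12221 genes whose mean normalized count over all 6 libraries was 50 or more, split into 5 groups by exon number, the share called lower went from 13.5% in the group with the fewest exons (1 to 5) to 2.62% in the group with the most (18 to 347). Without Zfp genes it went from 11.2% to 2.52%. The share called higher went from 4.70% to 1.96%. By mean count over the 4 libraries the share called lower went from 16.48% in the lowest group to 0.245% in the highest, whereas the share called higher stayed between 2.25% and 4.09%. A gene that fell has a lower mean by construction, so these shares are a description.

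Exon number was then compared among genes of like level. Without Zfp genes and within the lowest of 5 groups by mean count, 19.5% of 550 genes with 1 to 3 exons were called lower beside 10.3% of 799 genes with over 10 exons. In the next group the shares were 15.01% and 8.27%, in the middle group 8.82% and 2.52%, and in the fourth 3.93% and 0.887%. In the highest group 0 of 131 genes with 1 to 3 exons and 1 of 1314 with over 10 exons were called lower. Genes with 1 to 3 exons also had the higher share of increases, 5.64% beside 3.38% in the lowest group.

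**Figure D3:**
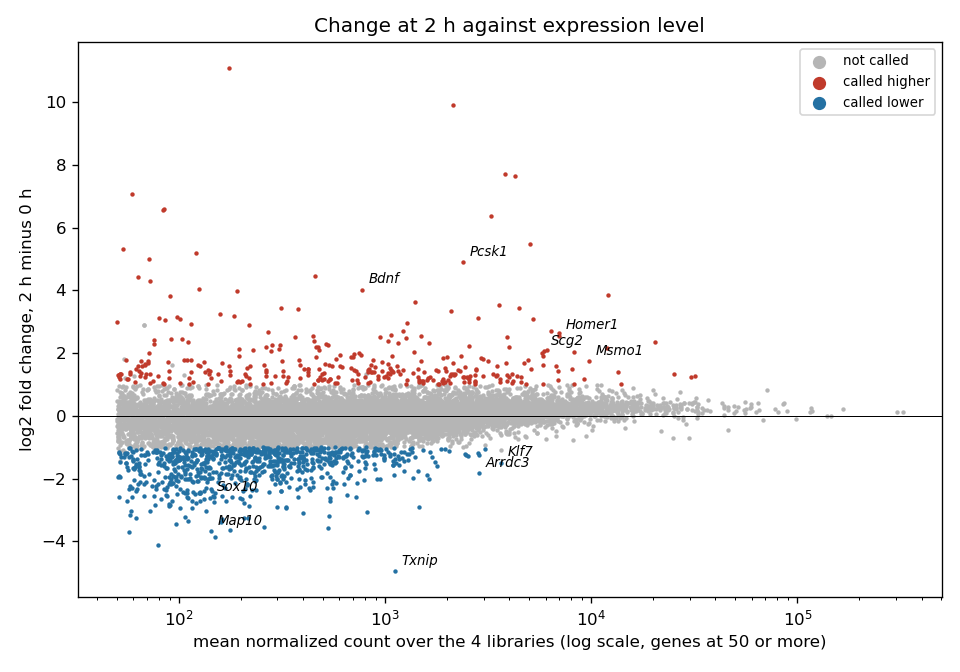
Log2 fold change (2 h minus 0 h) against the mean normalized count over the 4 libraries on a log axis, for 12302 genes with a mean of at least 50. Red points are 331 genes called higher and blue points 838 called lower; decreases thin out toward high counts while increases, such as Msmo1, remain.

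**Figure D4:**
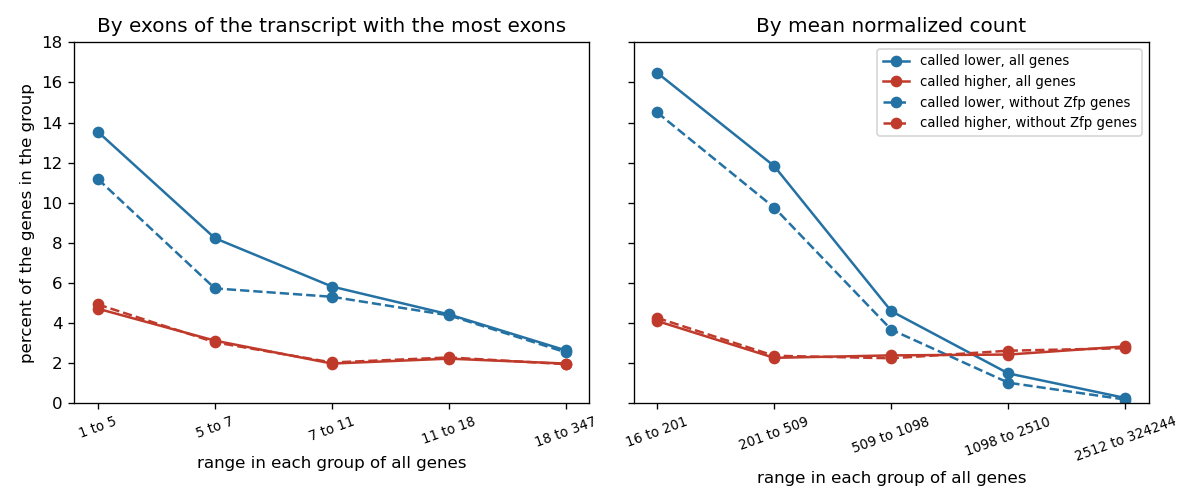
Percent of genes called higher (red) or lower (blue) in 5 groups of like size by exon number (left) and by mean normalized count (right), with Zfp genes (solid) and without them (dashed). The share called lower goes from 13.5% to 2.62% across exon groups and from 16.48% to 0.245% across count groups.

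Promoters were searched for motifs of activity-dependent factors in the 250 bases before the gene start, in RefSeq promoters of build GRCm38.p6 matched by symbol to tested genes of any level, which also number 12221. The motifs were the full cAMP response element TGACGTCA, bound by CREB-family factors, the shorter element TGACG on either strand, which the full element contains, the E-box CACGTG and the CArG box of SRF on either strand. The full element stood in 26 of 418 genes called higher (6.22%), in 17 of 781 called lower (2.18%) and in 362 of all genes (2.96%). Outside the immediate-early list it was 24 of 404 (5.94%), and among genes with a single RefSeq promoter 5.34%, 2.35% and 2.78% of those called higher, those called lower and all genes. The shorter element stood in 33.97%, 25.7% and 28.9%, E-boxes in 10.8%, 10.2% and 9.45%, and CArG boxes in 2.15%, 1.02% and 1.45%. A match is a description of the letters and not a bound site.

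The 7 windows below are shown because they place the element, in capitals, in the promoters of genes that rose at 2 h. Distances are to the RefSeq start, which can differ from the GENCODE start.
Pcsk1 (chr13:75089768-75089797, plus strand, element 78 bases before the start): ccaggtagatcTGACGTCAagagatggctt
Ppp1r15a (chr7:45526269-45526298, minus strand, 12 bases before the start): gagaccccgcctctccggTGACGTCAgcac
Zdbf2 (chr1:63273199-63273228, plus strand, 59 bases before the start): cgcaccttcgcTGACGTCAgagctgcagtg
Arl5b (chr2:15055188-15055217, plus strand, 121 bases before the start): caggcgcccgcTGACGTCAgcgcgccgacg
Slc38a6 (chr12:73286716-73286745, plus strand, 121 bases before the start): tcggaggctggTGACGTCAtcactgctggc
Scg2 (chr1:79440076-79440105, minus strand, 68 bases before the start): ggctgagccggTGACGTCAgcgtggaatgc
Suv39h2 (chr2:3475053-3475082, minus strand, 85 bases before the start): tcggtctccgcTGACGTCAgaacgcctcgc

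These genes differ in function and level. Arl5b, an Arf-family GTPase whose gene overlaps Nsun6, had 1569 and 1298 at 0 h and 8713 and 4441 at 2 h. Suv39h2, a histone H3K9 methyltransferase whose gene overlaps Dclre1c, had 207 and 235 against 724 and 526. Each of the 7, like every gene called higher, had both depolarized libraries above both silenced ones. The element lay 12 to 121 bases before the start.

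The 2 h replicates differed from each other by GC content. Across the 12221 genes whose mean over all 6 libraries was 50 or more, GC content was set against the log2 ratio of replicate 1 to replicate 2. Genes are not independent of each other, and the coefficient is a description. Spearman's rho was -0.74 at 2 h and -0.40 at 0 h. In 4 groups by GC content the median log2 ratio at 2 h was 0.40, 0.03, -0.13 and -0.26 from the lowest to the highest, and at 0 h 0.09, 0.03, -0.0041 and -0.05. The ratio exceeded 2-fold for 392 genes (3.21%) at 2 h and 47 (0.385%) at 0 h. Against the mean of the silenced libraries, rho was -0.16 for 2 h replicate 1 and 0.34 for replicate 2, so the replicates leaned to opposite sides of the controls.

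Among called genes the 2 h replicates differed more than 2-fold in 38 of 609 that rose and 113 of 1000 that fell. After a correction that removed the trend (rho of 0.0042 at 2 h) there were 667 increases and 983 decreases, and 602 and 950 of them are among the calls above. Zdbf2, Homer1 and Arl5b, whose GC contents are 42.3%, 42.0% and 40.1% and whose 2 h replicates lay far apart, were called in both. Among called genes named by rule, Mrpl1 lost its call with the correction.

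**Figure D5:**
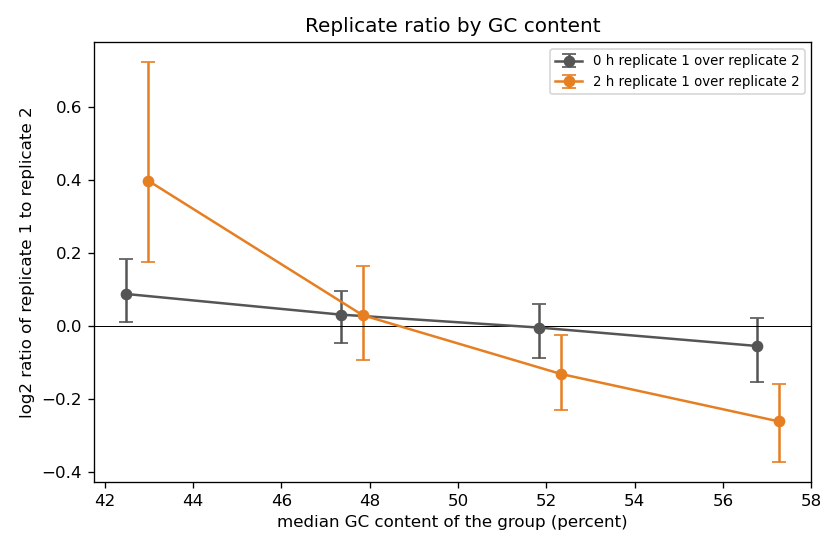
Median log2 ratio of replicate 1 to replicate 2 (bars from the lower to the upper quartile of genes) in 4 groups of genes by GC content in percent, for 0 h (grey) and 2 h (orange). The 2 h medians go from 0.40 to -0.26 and the 0 h medians from 0.09 to -0.05.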

How the data were processed

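Polyadenylated RNA of each culture was sequenced as paired-end reads, which the authors trimmed and mapped to mm10. They estimated expression with RSEM, and the submitters' processing notes name RSEM 1.3.0 and Bowtie2 2.2.9. The expected counts deposited by the authors divide reads that fit several genes by maximum likelihood, are not normalized, and were rounded to whole numbers here; genes with non-whole counts are reported as having shared reads. The TPM values deposited by the authors, corrected for transcript length, were used for marker levels. Whether counting used strand is not given in the sources used here. Shared reads and overlaps with other genes are named for some genes only.

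Of 43432 listed genes 42548 were matched to a symbol and position in GENCODE M21 (GRCm38), and 42462 had a GC content from its transcripts. DESeq2 1.42.0 in R 4.3.3 was fitted to all 6 libraries with 1 term for time, median-of-ratios size factors and a Wald test with Benjamini-Hochberg adjustment. The tool and the thresholds are those the study names. The groups hold 2 libraries each, so errors rest on few samples. Both DESeq2 and edgeR 4.0.16 were tested on simulated data. The members and the gene lists were chosen with earlier results of these data known.

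Named genes were the 15 largest increases and 15 largest decreases outside the immediate-early and Zfp lists, among called genes averaging 100 or more normalized counts, with no overlap between groups and a symbol that is not a provisional Gm or Rik name. In each list they were up to 4 called genes with the largest change at a mean of 50 or more or, where none was called, the 2 most abundant, in each named symbol family the 2 largest changes, and the marker genes. Other members, named to complete a count or for a known role, were chosen after their values were seen. Some members are counted in their lists but not reported by name here. The shares called over all genes tested stand beside the main list counts. GC content was compared with replicate ratios of normalized counts with a pseudocount of 1. The alternatives were edgeR, other size factors, filters, a replicate block, GC correction, a test against a 2-fold change, and leaving out each library.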

Additional observations from a re-analysis of the deposited data

How the results depend on the processing

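Chosen by size, and so partly by construction, the 30 genes named for the largest changes kept their calls under every alternative run. Of 142 other called genes named by rule, 62 did so, 80 lost their call in the test against a fold change of 2 and 23 in some other alternative. No called gene named by rule changed direction, whereas some that were not called, such as Gria2 at -0.42 to 0.24, changed sign when 1 library was left out. In the test against a fold change of 2, 178 genes were called higher and 225 lower. The list counts in that test were 5 for sterol synthesis and 5 for the Rel, NFAT, IRF and STAT factors (higher), and 11 for BTB and SCAN factors, 6 for solute carriers, 3 for tRNA and rRNA modification enzymes, 0 for DNA repair, 1 for ubiquitin-ligase adaptors and 3 for cilium genes (lower). That test demands more of each gene by construction.

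When 1 library was left out, leaving a lone sample assumed to vary like the other groups, 421 to 524 genes were called higher and 720 to 1150 lower; the count of decreases was highest without 2 h replicate 1. List counts were then 8 to 9 for sterol synthesis, 9 to 10 for Rel and related factors, 21 to 28 for BTB and SCAN factors, 19 to 25 for solute carriers, 15 to 20 for tRNA and rRNA modification, 9 to 13 for DNA repair, 8 to 16 for ubiquitin-ligase adaptors and 8 to 9 for cilium genes. The counts for DNA repair and ubiquitin-ligase adaptors were lowest without 0 h replicate 1, and the cause was not tested.

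With edgeR's quasi-likelihood test there were 639 increases and 1028 decreases, and 588 and 978 of them are DESeq2 calls. The replicate numbers of 0 h and 2 h share only a number. Deviations of same-numbered libraries correlated at r = 0.28 across genes, and at 0.07 after GC correction. A replicate block gave 548 increases and 967 decreases, and 4 of the 142 named genes lost their call; with the replicate block and GC correction together the counts were 583 and 927. A GC correction fitted within groups, added after seeing the data, gave 614 and 1036. The GC trend itself was -0.74 at 2 h and lay between -0.79 and -0.67 at other count minimums or in TPM; by construction it went to 0.0042 after GC correction, and that of the 0 h replicates to 0.0213.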

Other observations

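Genes that were nearly silent at 0 h made up part of the increases. Of 609 genes called higher, 135 had at most 3 expected counts in each 0 h library, and 3 of these averaged 50 or more normalized counts. How many of all genes tested lay that low at 0 h was not counted, so the 135 are a description. The examples that follow were chosen after their values were seen. The transcript 1700016P03Rik, which has shared reads and overlaps Ovca2, had 0 and 0 expected counts at 0 h and 346.5 and 345 at 2 h. Ucp1, the uncoupling protein of brown fat mitochondria, had 2 and 2 against 195 and 132, and Cldn15, a claudin of tight junctions, 1 and 1 against 110 and 120. Slc2a2, the glucose transporter GLUT2 of liver and pancreas, had 0 and 0 against 116 and 63, and 13 and 6 at 6 h. Bhlha15, a factor of secretory cells, had 1 and 2 against 63 and 56, and 5 and 6 at 6 h. No fold change is given from so few counts at 0 h.

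Among 514 pairs of protein-coding genes on opposite strands whose starts lay within 1000 bases of each other, with a mean count of at least 50 in both, 2 pairs had calls in opposite directions; they are given as examples chosen after their values were seen, and no rate is drawn from them. The pair Trmt5 and Slc38a6 on chromosome 12, with 68 bases between their GENCODE starts, had a log2 fold change of -1.98 for the tRNA methyltransferase gene Trmt5 and 2.17 for the carrier gene Slc38a6, whose window with the cAMP response element lies between the 2 GENCODE starts. In Fam104a and D11Wsu47e the changes were 1.04 and -1.54.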
